A study of Homo sapiens with 12 samples.

Results

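Numbered zinc finger genes, whose symbols are ZNF followed by a number and at most 1 letter, were described in OPM2, an established human cell line from a plasma cell cancer, multiple myeloma. The members were selected on their measured level: a mean of at least 5 CPM (counts scaled to the library total) over the 12 libraries, which held for 143 of 550 ZNF genes among 63152 gene identifiers. The rule reads no comparison between groups, but the set was proposed with earlier results of these data known. The mean covers the libraries of all groups, so a member near the threshold could pass only through the groups where it was high. ZNF248 and ZNF764, described below, are such members, and their falls are not independent of the selection. ZNF550 (5.03 CPM) and ZNF771 (5.01 CPM) lay just inside the threshold, and ZNF558 (4.93 CPM) and ZNF184 (4.92 CPM) just outside it. All 143 members passed the filter on low counts and were tested, as were 146 of the 407 ZNF genes under 5 CPM.

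Cells were treated for 2 h with 18DS at 250 nM, JQ1 at 250 nM, BKM120 at 1 µM or DMSO vehicle, with 3 libraries a group described as biological triplicates. 18DS is presented by the submitters as a chimera of the activities of a PI3K inhibitor and a BET inhibitor in 1 compound. JQ1 displaces BET proteins from acetylated histones, and BKM120 (buparlisib) inhibits the lipid kinase PI3K. No group received JQ1 and BKM120 together, and the growth conditions were the same for all 4 groups as far as the labels give them. The line is a single established line, so the p-values below measure the spread between its 3 treated cultures, and in bulk RNA fewer cells with a transcript and less of it per cell cannot be told apart.

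Total counts were 5501895 to 7692013 per library, and 13180 identifiers were tested. All 10 plasma cell and myeloma markers passed the filter, with summed levels of 2890 to 2950 CPM in 18DS libraries, 2930 to 2970 CPM in JQ1 libraries, 3340 to 3520 CPM in BKM120 libraries and 3450 to 3570 CPM in DMSO libraries. Of 7 T and NK cell markers 0 passed, with summed levels of 0 to 1.44 CPM over the 12 libraries and CD3D and NKG7 at 0. Of 7 myeloid markers 1 passed (summed 0.162 to 3.15 CPM, FCGR3A at 0), and of 8 epithelial and fibroblast markers 0 passed (summed 0.823 to 3.4 CPM, LUM at 0). Mitochondrial genes held 6.95 to 7.6% of counts in 18DS libraries, 6.61 to 7.04% in JQ1 libraries, 6.99 to 7.65% in BKM120 libraries and 6.56 to 6.97% in DMSO libraries. HEXIM1, a transcript that rises when BET proteins are displaced, averaged 122 ± 19.9 CPM with 18DS, 99.4 ± 11.2 CPM with JQ1, 30.7 ± 0.258 CPM with BKM120 and 31.5 ± 1.85 CPM with DMSO (SD, n = 3 each). The 18DS replicate 2 library stood apart from the other 18DS libraries, with a chi-square per degree of freedom of 8.57 and 5.87 against them and 2.85 between those. The main counts and shares over the members with 18DS are therefore also given without it.

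Zinc finger genes of the C2H2 kind form the largest family of human transcription factor genes. Each finger is a short loop that holds a zinc ion through cysteine and histidine side chains and reads a few bases of DNA, and tandem fingers read longer sites. Many of these proteins also carry a KRAB domain, which binds the corepressor TRIM28 (KAP1) and through it the histone methyltransferase SETDB1, and many of them silence transposable elements. Other members bind RNA, ubiquitinate ribosomes or act at the mitotic spindle. The translated coding sequence of 1 transcript per gene was searched. By this search 55 members had fingers and a KRAB box, 68 had 3 or more fingers without one, and 15 had 1 or 2 fingers. In 3 (ZNF330, ZNF451 and ZNF703) the searched product had no match to the finger pattern. Other isoforms were not searched, so a gene may encode fingers that its class leaves out, and ZNF451 was searched as a product of 559 residues. The other 2, ZNF252P and ZNF271P, are annotated pseudogenes. Classified members had a median of 8 fingers and at most 31, and 62 members lay next to another ZNF gene in the annotation.

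The promoter windows of 3 members are printed because these genes had the largest falls: ZNF248 had the largest fall with JQ1, and ZNF764 and ZNF507 had the largest falls with 18DS. Each runs from 250 bases before to 50 bases after the RefSeq gene start on GRCh38.p14, 5′ to 3′ on the gene's own strand. Capitals mark the E-box (CACGTG) and the GC box (GGGCGG on either strand). ZNF507 is at chr19:32345360-32345659 on the plus strand. ZNF764 is at chr16:30558325-30558624 and ZNF248 at chr10:37858054-37858353, both on the minus strand.
ZNF248: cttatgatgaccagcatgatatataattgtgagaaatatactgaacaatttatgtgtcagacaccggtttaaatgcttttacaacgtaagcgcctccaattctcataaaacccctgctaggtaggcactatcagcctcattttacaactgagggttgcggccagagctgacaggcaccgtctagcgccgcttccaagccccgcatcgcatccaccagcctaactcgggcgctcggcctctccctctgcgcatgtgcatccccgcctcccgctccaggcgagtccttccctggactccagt
ZNF507: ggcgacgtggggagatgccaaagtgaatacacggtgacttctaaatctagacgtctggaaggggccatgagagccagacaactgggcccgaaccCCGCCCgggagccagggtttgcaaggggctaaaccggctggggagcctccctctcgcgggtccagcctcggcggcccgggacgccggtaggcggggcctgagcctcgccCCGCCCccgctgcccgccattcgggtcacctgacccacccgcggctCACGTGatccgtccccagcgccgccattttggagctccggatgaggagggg
ZNF764: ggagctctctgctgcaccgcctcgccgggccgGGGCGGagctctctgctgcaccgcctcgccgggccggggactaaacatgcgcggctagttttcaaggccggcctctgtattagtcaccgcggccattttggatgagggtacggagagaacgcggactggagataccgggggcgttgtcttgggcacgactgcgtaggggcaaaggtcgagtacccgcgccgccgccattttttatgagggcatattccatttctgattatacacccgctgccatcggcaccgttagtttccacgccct

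The ZNF507 window held 1 E-box and 2 GC boxes, the ZNF764 window 1 GC box and no E-box, and the ZNF248 window neither. Of the 143 members, 131 had a window in the RefSeq table. A GC box, searched on both strands, was found in 70.2% of these windows and in 44.6% of all 27305 windows of the same length, and the median GC content was 64% against 58.3%. The 27305 windows were not limited to genes of at least 5 CPM, as the members are. Whether other genes of that level differ from the members in these letters was not tested. The E-box was found in 8.4% of member windows and 7.43% of all windows, and CCAAT in 43.5% and 35.7%. Among the 43 members lower with 18DS than with DMSO, 6.98% of windows held an E-box, 62.8% a GC box and 51.2% CCAAT. Among the 83 members with a window that were not called in that comparison, the shares were 8.43%, 73.5% and 38.6%. The CRE letters were in 9.3% of the lower and 4.82% of the uncalled members' windows (4 windows each), and the NRF1 letters in 0 and 3.61%. A match is a description of the letters in the window and was not tested as a binding site.

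The summed level of the 143 members was 2690, 2740 and 2770 CPM in the 18DS libraries, 2770, 2770 and 2830 CPM in the JQ1 libraries, 2920, 2990 and 2980 CPM in the BKM120 libraries, and 3000, 3050 and 3030 CPM in the DMSO libraries. The DMSO libraries were the 3 highest, and the 18DS and JQ1 libraries all lay under the BKM120 ones. The share of members under their own mean over the 12 libraries was 67.8, 57.3 and 61.5% in 18DS libraries, 51.7, 54.5 and 48.3% in JQ1 libraries, 44.1, 44.8 and 37.1% in BKM120 libraries, and 35.7, 36.4 and 39.2% in DMSO libraries. For the other tested genes of at least 5 CPM it was 47 to 51.2% over the 12 libraries. The group with the lowest mean was 18DS for 59 members (41.3%) and for 28.1% of the 9706 other tested genes of at least 5 CPM, and without 18DS replicate 2 for 40.6% and 26.9%. The group with the highest mean was DMSO for 56 members (39.2%) and for 27.1% of those other genes.

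More members were called lower than higher with 18DS and with JQ1, and the lower calls were most numerous with 18DS. With 18DS against DMSO, 43 members were lower and 6 higher, or 34.3% of the members beside 21.0% of all tested genes called. The lower calls took 30.1% of the members and 12.7% of other genes of at least 5 CPM, and the higher calls 4.2% and 11.2%. With JQ1 against DMSO, 14 members were lower and 4 higher (12.6% of the members), beside 6.08% of all tested genes. The lower calls took 9.79% of the members and 3.99% of other genes of at least 5 CPM, and the higher calls 2.8% and 2.86%. With BKM120 against DMSO, 7 were lower and 3 higher (6.99%), beside 8.21% of all tested genes, so the share with BKM120 was no higher than the background. The lower calls took 4.9% of the members and 5.32% of other genes of at least 5 CPM, and the higher calls 2.1% and 4.83%. Calls are those of the quasi-likelihood test of edgeR, with p-values adjusted over all 13180 genes (Benjamini-Hochberg) and a threshold of 0.05. The 3 comparisons share the DMSO libraries, so their counts are not independent of each other. BKM120 was given at another dose than 18DS and JQ1, and its values stand beside theirs without a test of the difference.

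The median log2 fold change of the members was -0.16 with 18DS, -0.12 with JQ1 and -0.064 with BKM120, each against DMSO, and the medians over all tested genes were -0.0033, 0.003 and 0.00019. The median with BKM120 was -0.038 without BKM120 replicate 3, and with upper-quartile factors it was -0.019, beside 0.045 over all tested genes. Without 18DS replicate 2 the median with 18DS was -0.14. Of the 143 members, 92 had a fold change below zero with 18DS, 92 with JQ1 and 83 with BKM120. These are 64.3, 64.3 and 58%, beside 50.4, 49.5 and 50% of all tested genes and 51.2, 49.5 and 52% of other genes of at least 5 CPM. The interquartile range of the members' log2 fold changes was 0.66 with 18DS, 0.52 with JQ1 and 0.36 with BKM120, and 0.42, 0.27 and 0.33 over the other genes of at least 5 CPM. At matched levels of 5 to 20 CPM it was 0.78, 0.57 and 0.36 over members and 0.52, 0.38 and 0.39 over other genes, so with BKM120 the members were not spread more widely. Without 18DS replicate 2 it was 0.68 with 18DS over the members and 0.39 over the other genes of at least 5 CPM. Members had fewer counts than those genes (median 11.4 and 24 CPM), and their median standard error was larger (0.19 and 0.14 with 18DS). Among other tested genes of 5 to 20 CPM, a range that held 105 members, 10.4% were lower and 8.05% higher with 18DS, whereas 30.5% of those 105 members were lower and 2.86% higher. Without 18DS replicate 2 the shares were 8 and 5.83% of those other genes, and 26.7 and 1.9% of the 105 members. The groups did not overlap for 62 members with 18DS against DMSO (51 of them lower), for 59 with JQ1 (43 lower) and for 35 with BKM120, or 43.4, 41.3 and 24.5% of members beside 35.3, 25.3 and 28.2% of all tested genes. Over other genes of at least 5 CPM the shares were 38.3, 26.7 and 32%. Of those 3720 genes with 18DS 1981 were lower, and of those 2587 with JQ1 1358. Without 18DS replicate 2 the groups did not overlap for 71 members with 18DS (57 of them lower), or 49.7%, beside 44.2% of all tested genes. Over other genes of at least 5 CPM it was 47.2%, near the members' share, with 2385 of those 4582 genes lower.

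**Figure D1:**
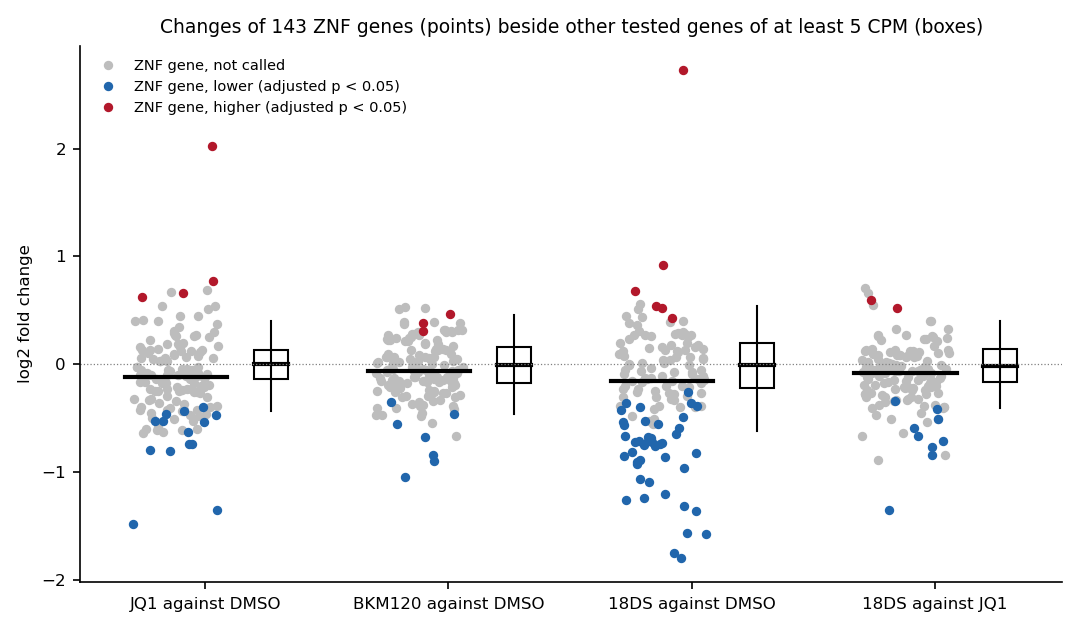
Log2 fold change (y axis) of the 143 ZNF genes (points, with their median as a black bar) in the 4 comparisons (x axis), beside a box of the quartiles, with whiskers from p5 to p95, of the 9706 other tested genes of at least 5 CPM. Blue points (lower at an adjusted p under 0.05) number 43 for 18DS against DMSO, and ZNF703 is the red point (higher) at 2.73 there and at 2.02 for JQ1.

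For 18DS against DMSO, 39 to 49 members were called when each library was left out in turn, and 44 (6 higher and 38 lower) without 18DS replicate 2. Those 38 are 26.6% of the members, beside 9.82% of other genes of at least 5 CPM in the same fit. Of the 49 members called, 33 kept their call whichever library was left out. For JQ1 against DMSO the count was 8 with DMSO replicate 3 left out, 10 with JQ1 replicate 3 left out and 11 with JQ1 replicate 1 left out, and 6 of the 18 kept their call throughout. For BKM120 against DMSO it was 5 without BKM120 replicate 1 or BKM120 replicate 3 and 6 without DMSO replicate 1, and 4 of the 10 kept their call throughout. Calls over all tested genes also varied with the library left out. They ranged from 276 to 591 lower and 224 to 430 higher with JQ1, and from 259 to 833 lower and 223 to 731 higher with BKM120.

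Of the 143 members, 87 were called in none of the 4 comparisons, which include 18DS against JQ1, and 56 in at least 1. Lower calls with both 18DS and JQ1 and with no call for BKM120 were made for ZNF3, ZNF22, ZNF227, ZNF248, ZNF507, ZNF587B, ZNF593, ZNF639, ZNF711 and ZNF775. ZNF121 and ZNF142 were lower with all 3 compounds. Another 22 members were called with 18DS against DMSO and in no other comparison, all of them lower, with log2 fold changes between -1.26 (ZNF689, KRAB) and -0.39 (ZNF770). They include ZNF143, an activator of many promoters whose adjusted p lay just under the threshold (log2 fold change -0.57, adjusted p = 0.05 by edgeR) and rose above it when any library other than 18DS replicate 3 or BKM120 replicate 3 was left out (up to 0.272). They also include the neighbours ZNF33A (-0.76, adjusted p = 0.000107) and ZNF37A (-0.40, adjusted p = 0.0294), and ZNF37A lost its call without 18DS replicate 1 or 3 or DMSO replicate 1 or 3 (adjusted p = 0.0763 to 0.182). That a member was called with 18DS and not with JQ1 does not show a difference between the compounds, which is tested further on.

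**Figure D2:**
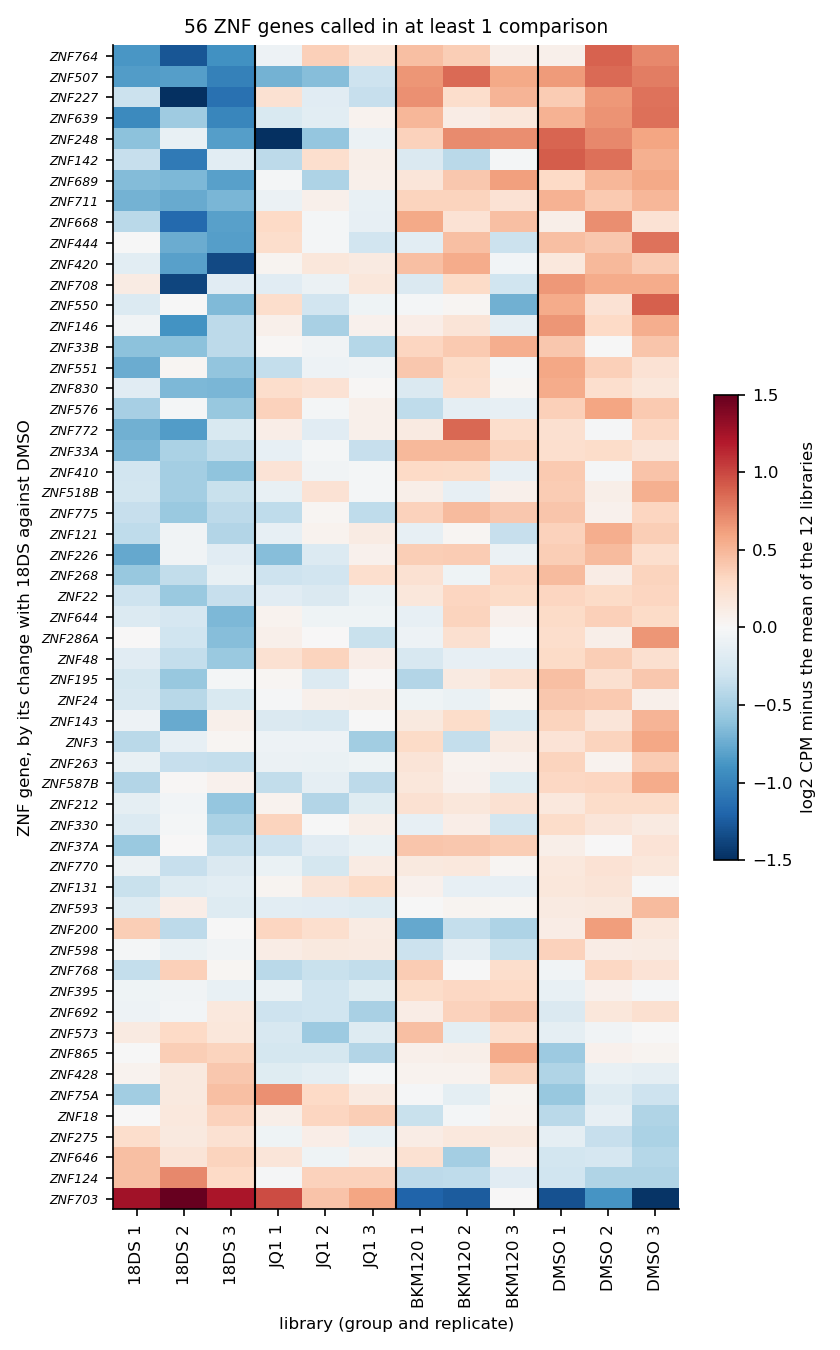
Log2 CPM minus the gene's mean over the 12 libraries (colour, blue lower and red higher) for the 56 members called in at least 1 comparison (rows, ordered by the change with 18DS against DMSO) in each library (columns, by group). The upper rows are blue in the 18DS libraries and red in the DMSO libraries, and ZNF703 in the bottom row shows the opposite colours.

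Among the 55 KRAB members, 20 were lower and 2 higher with 18DS against DMSO (36.4 and 3.64%, beside 12.7 and 11.2% of other genes of at least 5 CPM), and 16 were lower (29.1%, beside 9.82%) without 18DS replicate 2. With JQ1, 4 were lower and 3 higher (7.27 and 5.45%, beside 3.99 and 2.86%). The 4 lower calls became 2 without JQ1 replicate 2 or DMSO replicate 2 and 1 without JQ1 replicate 3 or DMSO replicate 3, and the 3 higher calls became 1 without DMSO replicate 1 or 3. Over other genes of at least 5 CPM, calls with JQ1 ranged from 237 to 503 lower and 170 to 346 higher with single libraries left out. ZNF248, a KRAB gene with 7 fingers, was picked as the example of the set with earlier results of these data known. It had 2.82, 4.21 and 2.37 CPM in 18DS libraries, 1.03, 2.91 and 4.27 CPM in JQ1 libraries, 5.96, 7.83 and 7.73 CPM in BKM120 libraries, and 8.84, 7.89 and 7.16 CPM in DMSO libraries. All 6 libraries of 18DS and JQ1 lay under all 6 of BKM120 and DMSO. ZNF248 averaged 3.13 CPM with 18DS and 2.74 CPM with JQ1. It reached the threshold of 5 CPM through the BKM120 and DMSO libraries (7.17 and 7.96 CPM). The lowest count of any member was 6 in JQ1 replicate 1 and 9 in 18DS replicate 2, so such low values rest on few reads. The log2 fold change was -1.36 (SE 0.29) for 18DS and -1.48 (SE 0.3) for JQ1 against DMSO, with edgeR adjusted p-values of 0.00082 and 0.000979, and -0.15 (adjusted p = 0.775) for BKM120. Between 18DS and JQ1 the difference was 0.12 (95% interval -0.58 to 0.82, adjusted p = 0.894 by edgeR), and it turned to -0.12 without 18DS replicate 2 and to -0.23 without JQ1 replicate 1. In the annotation its exons overlap AL132657.1 on the same strand and AL135791.1 on the other, and how reads in such overlaps were assigned is not given in the sources used here.

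ZNF764, a KRAB gene with 7 fingers, had the largest fall of all members with 18DS. It had 2.26, 1.58 and 2.21 CPM in 18DS libraries, 4.3, 6 and 5.31 CPM in JQ1 libraries, 6.44, 6.05 and 4.85 CPM in BKM120 libraries, and 4.86, 8.86 and 7.83 CPM in DMSO libraries. The 18DS libraries lay under every other library, and the JQ1, BKM120 and DMSO libraries overlapped. ZNF764 averaged 2.02 CPM with 18DS and reached the threshold of 5 CPM through the other groups (5.2 CPM with JQ1, 5.78 CPM with BKM120, 7.18 CPM with DMSO). It was 3.49-fold lower with 18DS than with DMSO (log2 fold change -1.80, SE 0.29, edgeR adjusted p = 1.87e-05), and -0.46 (adjusted p = 0.34) with JQ1 and -0.30 (adjusted p = 0.502) with BKM120 on the log2 scale. Its exons overlap AC002310.4 on the same strand.

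ZNF227 (KRAB, 18 fingers) lies between ZNF226 and ZNF235 and had 8.32, 3.16 and 4.58 CPM in 18DS libraries, 12.4, 9.28 and 8.16 CPM in JQ1 libraries, 17.2, 12.7 and 15.1 CPM in BKM120 libraries, and 13.8, 16.8 and 18.8 CPM in DMSO libraries. The 18DS and JQ1 libraries all lay under the DMSO ones, and 18DS replicate 1 overlapped the JQ1 range. The log2 fold change against DMSO was -1.58 (SE 0.24, adjusted p = 2.05e-05 by edgeR) with 18DS and -0.74 (SE 0.22, adjusted p = 0.0391) with JQ1. The call with JQ1 was lost without JQ1 replicate 2 or 3 and without DMSO replicate 2 or 3 (adjusted p = 0.125 to 0.221). Its neighbour ZNF226, also with a KRAB box, was -0.72 with 18DS (adjusted p = 0.0161), a call lost without 18DS replicate 1 or DMSO replicate 2 (adjusted p = 0.067 and 0.118). ZNF689 had 3.95, 3.86 and 3.47 CPM in 18DS libraries, against 8.1, 9.34 and 9.83 CPM in DMSO libraries, and ZNF420 had 8.6, 5.27 and 3.47 CPM against 10.8, 13.7 and 12.7 CPM. Neither pair of groups overlapped, and the edgeR log2 fold changes were -1.26 (adjusted p = 0.000107) and -1.07 (adjusted p = 0.000763). ZNF587B, the KRAB member with the next largest fall with JQ1 after ZNF248 and ZNF227, was -0.74 with JQ1 (adjusted p = 0.00705) and -0.53 with 18DS (adjusted p = 0.0263). Its call was lost with JQ1 without JQ1 or DMSO replicate 3 (adjusted p = 0.0597 and 0.0603) and with 18DS without 18DS replicate 1 or DMSO replicate 3 (adjusted p = 0.118 and 0.16).

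Of the 68 members with 3 or more fingers and no KRAB box, 19 were lower and 2 higher with 18DS against DMSO (27.9 and 2.94%, beside 12.7 and 11.2% of other genes of at least 5 CPM), and 19 were lower (27.9%, beside 9.82%) without 18DS replicate 2. With JQ1, 9 were lower and 0 higher (13.2 and 0%, beside 3.99 and 2.86%), and the lower calls numbered 3 without JQ1 replicate 1 and 5 without JQ1 replicate 3, DMSO replicate 2 or DMSO replicate 3. Lower calls with JQ1 over other genes of at least 5 CPM ranged from 237 to 503 with single libraries left out. ZNF507, with 9 fingers, had 4.37, 4.39 and 3.79 CPM in 18DS libraries, 4.82, 5.09 and 6.47 CPM in JQ1 libraries, 13.2, 15.1 and 12.4 CPM in BKM120 libraries, and 13, 15.1 and 14.3 CPM in DMSO libraries. Each of the 6 libraries of 18DS and JQ1 held less than a BKM120 or DMSO library, with a wide gap, and BKM120 and DMSO overlapped. The transcript was 3.37-fold lower with 18DS (log2 fold change -1.75, SE 0.2, edgeR adjusted p = 3.21e-08) and 2.55-fold lower with JQ1 (-1.35, SE 0.19, adjusted p = 4.38e-06) than with DMSO.

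ZNF639 (ZASC1), with 9 fingers, had 5.64, 7.73 and 5.53 CPM in 18DS libraries, 9.63, 10.2 and 11.9 CPM in JQ1 libraries, 16.3, 12.4 and 12.9 CPM in BKM120 libraries, and 16.6, 18.5 and 20.7 CPM in DMSO libraries. No 2 groups overlapped. Against DMSO the edgeR log2 fold change was -1.57 (adjusted p = 4.48e-08) with 18DS and -0.80 (adjusted p = 0.00155) with JQ1, and -0.42 with BKM120, which did not pass (adjusted p = 0.0981). ZNF711, an X-linked gene whose protein works with the histone demethylase PHF8, had 7.61, 7.37 and 7.74 CPM in 18DS libraries, 12, 13.5 and 11.8 CPM in JQ1 libraries, 16.3, 16.2 and 14.9 CPM in BKM120 libraries, and 18.6, 16.9 and 18.2 CPM in DMSO libraries. Its groups did not overlap either. It was -1.24 with 18DS (edgeR adjusted p = 3.59e-07) and -0.53 with JQ1 (adjusted p = 0.023), a call that was lost without JQ1 replicate 1 or 3 and without DMSO replicate 1 or 3 (adjusted p = 0.0786 to 0.125).

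ZNF22 (KROX-26), with 5 fingers, is one of the members with the most counts and the narrowest spread. It had 62, 52.1 and 60.5 CPM in 18DS libraries, 68.3, 66.4 and 71.6 CPM in JQ1 libraries, 86.5, 96.7 and 94 CPM in BKM120 libraries, and 96.5, 94.1 and 96.1 CPM in DMSO libraries. The 18DS libraries lay under the JQ1 ones, and both under BKM120 and DMSO, which overlapped. The change was 1.64-fold down with 18DS (log2 fold change -0.71, SE 0.09, edgeR adjusted p = 1.71e-07) and 1.39-fold down with JQ1 (-0.47, SE 0.09, adjusted p = 0.000321). Between 18DS and JQ1 it was -0.24 and did not pass (adjusted p = 0.122, 95% interval -0.42 to -0.057).

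ZNF142 and ZNF121 were lower with all 3 compounds than with DMSO. ZNF142, with 31 fingers the longest array among the members alongside ZNF91, had 4.65, 2.63 and 5.37 CPM in 18DS libraries, 4.47, 7.28 and 6.47 CPM in JQ1 libraries, 5.15, 4.43 and 5.93 CPM in BKM120 libraries, and 11.8, 11.1 and 9 CPM in DMSO libraries. The DMSO libraries lay above all others, and the compounds overlapped each other. The edgeR log2 fold changes were -1.32 (adjusted p = 0.000102) with 18DS, -0.81 (adjusted p = 0.024) with JQ1 and -1.05 (adjusted p = 0.00318) with BKM120. ZNF121 averaged 30.8 ± 4.83 CPM with 18DS, 38.1 ± 3.34 CPM with JQ1, 34.1 ± 4.4 CPM with BKM120 and 50.5 ± 3.69 CPM with DMSO (SD, n = 3 each), with changes of -0.72, -0.40 and -0.56 (edgeR adjusted p = 2.07e-05, 0.0249 and 0.00148). With JQ1, ZNF142 lost its call without JQ1 replicate 1 or 3 or DMSO replicate 1 or 2 (adjusted p = 0.0697 to 0.161), and ZNF121 without JQ1 replicate 1 or 2 or DMSO replicate 2 or 3 (adjusted p = 0.0567 to 0.157). The exons of ZNF142 overlap BCS1L on the other strand.

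**Figure D3:**
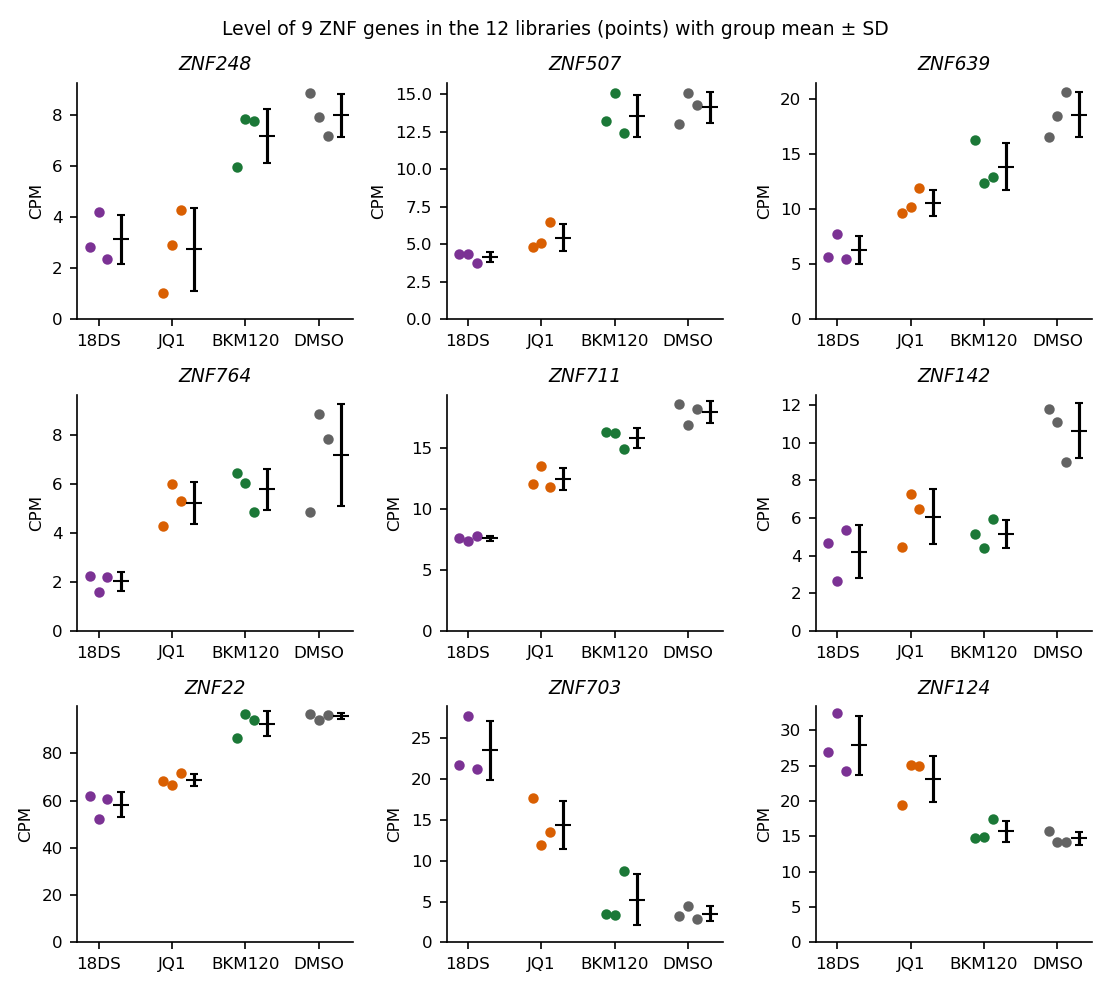
CPM (y axis, from 0, own scale per gene) of 9 members in the 18DS, JQ1, BKM120 and DMSO libraries (x axis), with 1 point a library and the mean ± SD of 3 libraries beside them. ZNF507 lies at 3.79 to 6.47 CPM in the 18DS and JQ1 libraries and at 12.4 to 15.1 CPM in the BKM120 and DMSO libraries, and ZNF703 shows the reverse order.

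Among the 15 members with 1 or 2 fingers, which include proteins with roles outside DNA binding, 3 were lower and 1 higher with 18DS against DMSO (20 and 6.67%, beside 12.7 and 11.2% of other genes of at least 5 CPM), and without 18DS replicate 3 only 1 was lower. ZNF598, the ubiquitin ligase that marks collided ribosomes, had 77.8, 74.1 and 76.9 CPM in 18DS libraries, 86, 87.9 and 87.3 CPM in JQ1 libraries, 63.6, 72.3 and 63.1 CPM in BKM120 libraries, and 101, 86.3 and 86.5 CPM in DMSO libraries. The BKM120 libraries were the 3 lowest, and JQ1 overlapped DMSO. It was -0.46 with BKM120 (SE 0.09, edgeR adjusted p = 0.000803) and -0.26 with 18DS (adjusted p = 0.03), and the call with 18DS was lost without 18DS replicate 2 or 3 or DMSO replicate 1 (adjusted p = 0.0698 to 0.258). Another identifier had counts within 5% of those of ZNF598 in every library, so its reads may be shared and its values are uncertain. The same holds for ZNF32, ZNF90 and ZNF410. ZNF207 (BuGZ), a microtubule-binding protein of the mitotic spindle, averaged 107 ± 9.11 CPM with 18DS, 107 ± 3.51 CPM with JQ1, 115 ± 1.25 CPM with BKM120 and 112 ± 4.55 CPM with DMSO. Its log2 fold changes were -0.075, -0.066 and 0.032 (edgeR adjusted p = 0.561, 0.746 and 0.866), with 95% intervals of -0.24 to 0.09, -0.23 to 0.099 and -0.13 to 0.2. Other members with the most counts were ZNF90 (mean 162 CPM) and ZNF664 (80.2 CPM, 9 fingers), both called in no comparison. ZNF664 was 0.13 with 18DS, 0.03 with JQ1 and 0.04 with BKM120 (edgeR adjusted p = 0.308, 0.908 and 0.844).

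With BKM120 the 7 lower calls were ZNF24, ZNF121, ZNF142, ZNF200, ZNF550, ZNF576 and ZNF598, and the 3 higher calls ZNF275, ZNF395 and ZNF428. ZNF576, with 4 fingers, had 14.1, 19.7 and 13.3 CPM in 18DS libraries, 25.6, 19.6 and 21.1 CPM in JQ1 libraries, 15.3, 18.2 and 18.3 CPM in BKM120 libraries, and 25.9, 30.4 and 26.5 CPM in DMSO libraries. The BKM120 libraries lay under all JQ1 and DMSO libraries and overlapped 18DS. It was -0.68 with BKM120 (edgeR adjusted p = 0.00229) and -0.83 with 18DS (adjusted p = 7.45e-05), and -0.32 with JQ1 (adjusted p = 0.204). ZNF200, with 5 fingers, was -0.90 with BKM120 (adjusted p = 0.0165 by edgeR), -0.30 with 18DS (adjusted p = 0.369) and -0.097 with JQ1 (adjusted p = 0.875). Its call was lost without BKM120 replicate 1 or 3 or DMSO replicate 2 (adjusted p = 0.0509 to 0.118). ZNF24, which carries a SCAN domain, was -0.35 with BKM120 (adjusted p = 0.0212) and -0.59 with 18DS (adjusted p = 3.39e-05), and the call with BKM120 was lost without BKM120 or DMSO replicate 1 or 2 (adjusted p = 0.0554 to 0.139). ZNF550, at the threshold of the set, was -0.84 with BKM120 (adjusted p = 0.0444) and lost its call when any 1 of 7 libraries was left out (adjusted p = 0.0505 to 0.232), namely JQ1 replicates 1, 2 and 3, BKM120 replicates 1 and 3 and DMSO replicates 1 and 3.

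ZNF428, which has 1 finger and the most counts of all members, had 206, 219 and 262 CPM in 18DS libraries, 174, 178 and 194 CPM in JQ1 libraries, 206, 206 and 250 CPM in BKM120 libraries, and 145, 183 and 180 CPM in DMSO libraries. The 18DS and BKM120 libraries overlapped each other and lay above all JQ1 and DMSO libraries. It was 0.43 with 18DS (edgeR adjusted p = 0.00219) and 0.38 with BKM120 (adjusted p = 0.0155), and 0.10 with JQ1 (adjusted p = 0.657). ZNF275, with 11 fingers, was 0.54 with 18DS (adjusted p = 0.00327), 0.46 with BKM120 (adjusted p = 0.0271) and 0.29 with JQ1 (adjusted p = 0.25) by edgeR. The calls with BKM120 were lost for ZNF428 without BKM120 replicate 3 or DMSO replicate 1 (adjusted p = 0.104 and 0.127), and for ZNF275 without any of the 3 BKM120 libraries or DMSO replicate 2 or 3 (adjusted p = 0.0513 to 0.123). ZNF395 averaged 79.4 ± 0.901 CPM with BKM120 and 64 ± 4.01 CPM with DMSO (log2 fold change 0.31, edgeR adjusted p = 0.0221), a call lost without BKM120 replicate 1 or 3 or DMSO replicate 1 or 3 (adjusted p = 0.0581 to 0.131). The exons of ZNF428 and ZNF576 overlap the same gene, SRRM5.

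The higher calls with 18DS were ZNF703, ZNF124, ZNF646, ZNF275, ZNF18 and ZNF428, and those with JQ1 were ZNF703, ZNF75A, ZNF124 and ZNF18. ZNF703, a transcriptional corepressor known as an amplified gene of luminal breast cancer, had the largest change of any member. It had 21.7, 27.7 and 21.2 CPM in 18DS libraries, 17.7, 12 and 13.5 CPM in JQ1 libraries, 3.54, 3.4 and 8.8 CPM in BKM120 libraries, and 3.24, 4.51 and 2.83 CPM in DMSO libraries. The 18DS libraries lay above the JQ1 ones and both above BKM120 and DMSO, among which BKM120 replicate 3 was the highest. It was 6.62-fold higher with 18DS (log2 fold change 2.73, SE 0.27, edgeR adjusted p = 1.45e-07) and 4.06-fold higher with JQ1 (2.02, SE 0.28, adjusted p = 5.13e-05). Between 18DS and JQ1 it was 0.71 and did not pass (95% interval 0.26 to 1.15, adjusted p = 0.0638).

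ZNF124, a KRAB gene with 8 fingers, had 26.9, 32.5 and 24.3 CPM in 18DS libraries, 19.4, 25.1 and 25 CPM in JQ1 libraries, 14.8, 14.9 and 17.4 CPM in BKM120 libraries, and 15.8, 14.2 and 14.2 CPM in DMSO libraries. The 18DS and JQ1 libraries overlapped and lay above the BKM120 and DMSO ones. The edgeR log2 fold change was 0.92 (adjusted p = 9.74e-06) with 18DS and 0.66 (adjusted p = 0.00281) with JQ1. ZNF646, with 30 fingers, averaged 13 ± 1.24 CPM with 18DS and 8.14 ± 0.563 CPM with DMSO (0.68, adjusted p = 0.00821 by edgeR), while its neighbour ZNF668 fell with 18DS, at 3.95, 2.11 and 2.84 CPM in 18DS libraries against 5.74, 9.02 and 6.33 CPM in DMSO libraries (-1.21, adjusted p = 0.00108). ZNF18 and ZNF75A, both with a KRAB box, were 0.62 and 0.77 with JQ1 (edgeR adjusted p = 0.0422 and 0.0191), and ZNF18 was 0.52 with 18DS (adjusted p = 0.0485). With JQ1, ZNF75A lost its call without JQ1 replicate 1 or DMSO replicate 1 or 3 (adjusted p = 0.0636 to 0.165) and ZNF18 without JQ1 replicate 2 or 3 or DMSO replicate 1 or 3 (adjusted p = 0.126 to 0.187). With 18DS, ZNF18 lost its call without 18DS replicate 2 or 3, JQ1 replicate 2 or 3 or DMSO replicate 1 or 3 (adjusted p = 0.0518 to 0.177).

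The share of lower calls with 18DS was above that of other genes of at least 5 CPM (12.7%) for KRAB members (36.4%) and for those with 3 or more fingers (27.9%), also without 18DS replicate 2 (29.1 and 27.9%, beside 9.82%). The 20% of the 15 members with 1 or 2 fingers is 3 genes, of which the fit without 18DS replicate 2 called 2 and the fit without 18DS replicate 3 called 1. Members next to another ZNF gene had 18 lower and 2 higher of 62 (29 and 3.23%), and those with none beside them 25 lower and 4 higher of 79 (31.6 and 5.06%). The 146 ZNF genes under 5 CPM had 26 lower and 3 higher calls (17.8 and 2.05%). Outside the ZNF symbols, 10 of 36 tested ZBTB genes, which pair fingers with a BTB domain, were lower and 1 higher (27.8 and 2.78%). Of 16 ZSCAN and ZKSCAN genes, which carry a SCAN domain, 2 were lower and 2 higher (12.5% each), and of 7 ZFP genes 3 were lower (42.9%). Over all tested genes, which include those under 5 CPM, 11% were lower and 9.96% higher. Without 18DS replicate 2, 17 members next to another ZNF gene and 21 with none beside them were lower (27.4 and 26.6%). In the same fit 21 of 158 ZNF genes under 5 CPM (13.3%), 8 of 36 ZBTB genes (22.2%) and 8.35% of all tested genes were lower. No test compared these classes with each other.

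**Figure D4:**
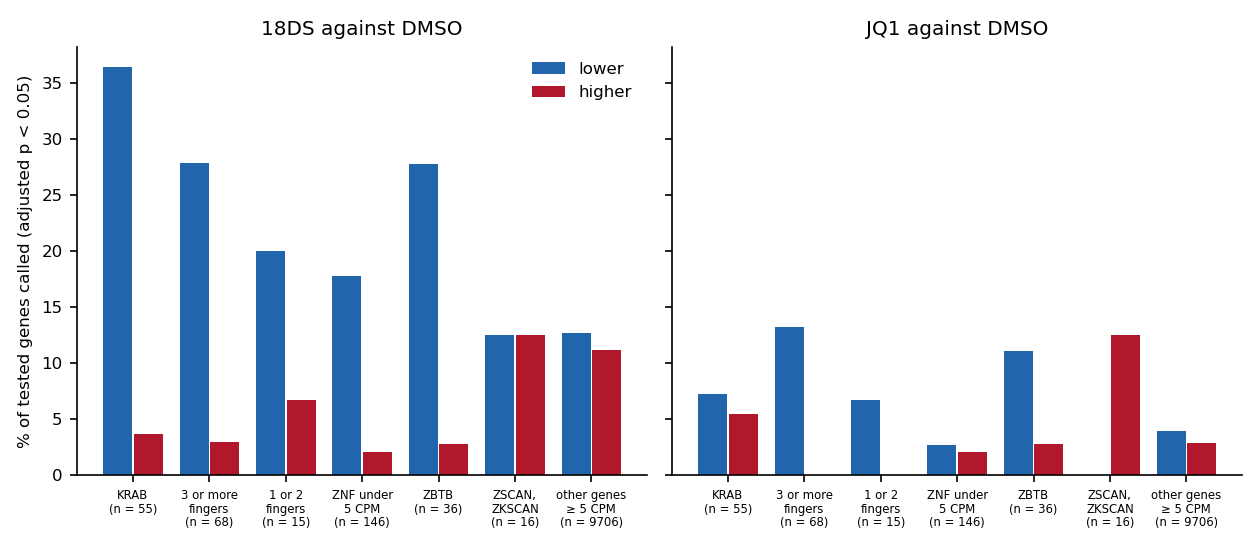
Percent of tested genes called lower (blue) or higher (red) at an adjusted p under 0.05 (y axis, from 0) with 18DS (left) and with JQ1 (right) against DMSO, by class (x axis, n below each). With 18DS the blue bar reaches 36.4% for KRAB members and 12.7% for other genes of at least 5 CPM, and the red bar 3.64% and 11.2%.

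Partner genes of KRAB repression, with more general heterochromatin and chromatin remodelling genes, were described from a list of 29, of which 28 were tested. The list came from general knowledge, and a change of a gene on it need not concern KRAB proteins. With 18DS against DMSO, 3 were lower and 1 higher (also without 18DS replicate 2), with JQ1 2 lower and 1 higher, and with BKM120 1 lower and 1 higher, or 14.3, 10.7 and 7.14% of the list beside 21.0, 6.08 and 8.21% of all tested genes. SETDB1, the histone H3 lysine methyltransferase of the complex, had 18.5, 26.5 and 19.7 CPM in 18DS libraries, 23, 22.2 and 21.9 CPM in JQ1 libraries, 37.5, 34.8 and 35.2 CPM in BKM120 libraries, and 41.4, 32.2 and 38.2 CPM in DMSO libraries. The 18DS and JQ1 libraries all lay under the BKM120 and DMSO ones. It was -0.80 with 18DS (SE 0.13, edgeR adjusted p = 1.62e-05) and -0.74 with JQ1 (SE 0.13, adjusted p = 0.000115). TRIM28, the corepressor that KRAB boxes bind, had 90.9, 104 and 98.4 CPM in 18DS libraries, 79.5, 70.8 and 79.8 CPM in JQ1 libraries, 80.7, 62.2 and 81.2 CPM in BKM120 libraries, and 71.6, 65.6 and 57.8 CPM in DMSO libraries. The 18DS libraries were the 3 highest, and the others overlapped. It was 0.58 with 18DS against DMSO (edgeR adjusted p = 4.77e-05) and 0.24 with JQ1 (adjusted p = 0.184).

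SMARCAD1, a chromatin remodeller that binds TRIM28, averaged 24.1 ± 2.29 CPM with 18DS, 28.3 ± 3.22 CPM with JQ1, 37.8 ± 2.65 CPM with BKM120 and 36.5 ± 1.41 CPM with DMSO (SD, n = 3 each). It was -0.59 with 18DS (edgeR adjusted p = 0.000277) and -0.36 with JQ1 (adjusted p = 0.0502). SUV39H1, another H3 lysine methyltransferase, was -0.61 with 18DS (adjusted p = 0.04 by edgeR) and -0.73 with JQ1 (adjusted p = 0.0355). Its call with 18DS was lost without 18DS replicate 1 or 3, JQ1 replicate 1 or any 1 DMSO library (adjusted p = 0.0502 to 0.157), and that with JQ1 without JQ1 replicate 1 or 3 or any 1 DMSO library (adjusted p = 0.0649 to 0.291). CBX5, which encodes heterochromatin protein HP1α, was 0.32 with JQ1 (edgeR adjusted p = 0.0267), lost without any 1 JQ1 library or DMSO replicate 2 or 3 (adjusted p = 0.0578 to 0.214). With BKM120 the DNA methyltransferase DNMT1 was -0.32 (edgeR adjusted p = 0.0273), lost without BKM120 replicate 1 or 3 or DMSO replicate 1 or 2 (adjusted p = 0.0514 to 0.192), and SETDB2 was 0.97 (adjusted p = 0.00841), lost without BKM120 or DMSO replicate 3 (adjusted p = 0.0585 and 0.0669).

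18DS and JQ1 were given at the same dose and time and are compared directly. Of the 143 members, 9 were lower and 2 higher with 18DS than with JQ1 (7.69% of the members beside 4.16% of all tested genes). Scaled by library totals alone, 13 were lower and 1 higher, and with upper-quartile factors 6 were lower and 4 higher. The lower calls took 6.29% of the members and 2.25% of other genes of at least 5 CPM, and the higher calls 1.4% and 3.02%. The median log2 fold change was -0.086, beside -0.012 over all tested genes. Below zero were 96 members (67.1%) and 52% of all tested genes, and without 18DS replicate 2 it was 88 members. The groups did not overlap for 37 members (25.9%), near the background of 24% of all tested genes and 27.3% of other genes of at least 5 CPM. The lower members were ZNF764 (-1.35, SE 0.3), ZNF420 (-0.84), ZNF639 (-0.77, SE 0.19), ZNF711 (-0.71, SE 0.17), ZNF830 (-0.67), ZNF48 (-0.59), ZNF576 (-0.51), ZNF131 (-0.42) and ZNF24 (-0.34), with edgeR adjusted p-values from 0.0107 (ZNF764) to 0.0477 (ZNF576). ZNF830, a protein found with splicing factors, had 14.7, 10.2 and 10.1 CPM in 18DS libraries, against 20.1, 19.3 and 16.8 CPM in JQ1 libraries, which did not overlap. The higher members were ZNF865 (0.59, adjusted p = 0.0463) and ZNF573 (0.52, adjusted p = 0.0313 by edgeR). For ZNF573, a KRAB gene, the 18DS libraries had 24.2, 27.2 and 24.8 CPM and the JQ1 libraries 18.6, 14.9 and 19.2 CPM, beside 20, 21.3 and 22 CPM in DMSO libraries.

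These calls of 18DS against JQ1 depended on single libraries. Of the members 0 were called by edgeR with either JQ1 replicate 2 or JQ1 replicate 3 left out, where 37 and 28 members had an unadjusted p under 0.05, compared with 36 with all libraries. The count was 1 without 18DS replicate 3, 4 without JQ1 replicate 1, 5 without 18DS replicate 2, 6 without DMSO replicate 2 and 7 without BKM120 replicate 1. Calls over all tested genes varied widely too. With single libraries left out they ranged from 33 to 443 lower and from 67 to 584 higher, beside 235 and 313 with all libraries. The 5 members called without 18DS replicate 2 were all lower (3.5%, beside 0.783% of other genes of at least 5 CPM). For ZNF764 the adjusted p was 0.0552 to 0.0595 without JQ1 replicate 2 or 3, with log2 fold changes of -1.32 to -1.25. ZNF639 and ZNF711 lost their calls without 18DS replicate 3 or JQ1 replicate 2 or 3 (adjusted p = 0.0595 to 0.143 for ZNF639 and 0.0522 to 0.0768 for ZNF711). Among the partners, TRIM28 was 0.35 higher with 18DS than with JQ1 on the log2 scale (edgeR adjusted p = 0.0394), and CBX5 and DNMT1 were -0.33 and -0.32 (adjusted p = 0.0317 and 0.0452). These calls were lost without 18DS replicate 2 or 3 or any 1 JQ1 library for each gene, without DMSO replicate 2 for TRIM28 and DNMT1, and without BKM120 replicate 1 or DMSO replicate 3 for DNMT1.

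BKM120 against DMSO and 18DS against JQ1 share no library. Over the 143 members the log2 fold changes of these comparisons had a Pearson correlation of 0.38 and a Spearman correlation of 0.40. Over the 9706 other genes of at least 5 CPM they were 0.54 and 0.52, and over all tested genes 0.34 and 0.40. The sign was shared by 62.9% of the members, 69.5% of those other genes and 66.3% of all tested genes. Without 18DS replicate 2 the correlations were 0.37 and 0.38 over the members, 0.47 and 0.44 over the other genes of at least 5 CPM, and 0.24 and 0.31 over all tested genes. These are correlations across genes, which are not independent replicates, and they are given as a description. ZNF142, ZNF576 and ZNF639 were below zero in both (-1.05 and -0.51 for ZNF142, -0.68 and -0.51 for ZNF576, -0.42 and -0.77 for ZNF639), and ZNF865 was above zero in both (0.39 and 0.59). ZNF764 (-0.30 and -1.35) and ZNF420 (0.016 and -0.84) had their larger change between 18DS and JQ1.

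**Figure D5:**
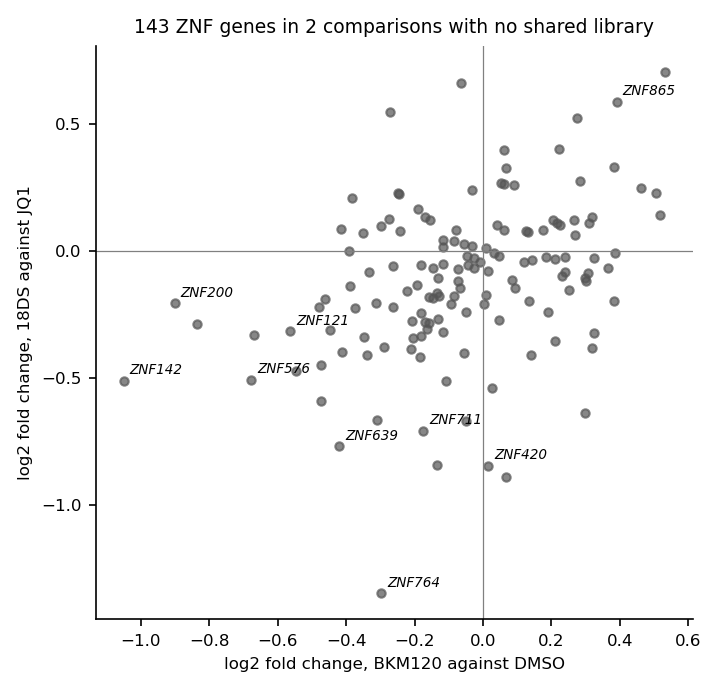
Log2 fold change of each of the 143 members in BKM120 against DMSO (x axis) and in 18DS against JQ1 (y axis), 1 point a gene, with some called members labelled. Points scatter loosely with a Pearson correlation of 0.38, and ZNF764 lies lowest at -1.35.

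The size of a member's variation over the 4 groups is given by the ratio of the highest to the lowest group mean. This ratio had a median of 1.42 over the members, 1.27 over the other genes of at least 5 CPM and 1.35 over those of 5 to 20 CPM. Without 18DS replicate 2 the median was 1.43 over the members and 1.26 over the other genes of at least 5 CPM. The ratio exceeded 2 for 14 members (9.79%), for 3.83% of the other genes of at least 5 CPM and for 6.42% of those of 5 to 20 CPM. The median SD of log2 CPM between replicates of the members was 0.211 with 18DS, 0.158 with JQ1, 0.168 with BKM120 and 0.173 with DMSO. Of the 143 members, 43 have exons that overlap another gene on the same strand and 56 on the other strand in the annotation, and 60 have neither.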

How the data were processed

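QuantSeq 3′ mRNA libraries with single-end reads were counted per Ensembl gene, and the authors deposited raw counts as whole numbers, 1 column per library and not normalized. Per the submitters' processing notes, the genome build was hg19 and the tools included HISAT2 (2.1.0), featureCounts, cutadapt (1.7) and SAMtools (1.9). Whether strand was used in counting, and how reads in overlapping genes were treated, is not stated in them. ZNF32 and ZNF32-AS1, whose exons overlap on opposite strands, had counts within 5% of each other in every library. Members with an overlap on either strand may therefore hold reads of the other gene, and their share of such reads was not tested. A 3′ library counts transcripts near their end, so CPM were not scaled by length and levels are not compared between genes.

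The analysis used edgeR 4.0.16 under R 4.3.3, with limma 3.58.1 and DESeq2 1.42.0 for alternatives, and matplotlib 3.10.9 (Python 3.11.15) for plots. Genes kept by filterByExpr (minimum count 10, minimum total count 15) entered 1 robust quasi-likelihood fit of the 12 libraries with TMM scaling (factors 0.971 to 1.033, common biological coefficient of variation 0.0862), tested on simulated data. Member selection used library totals, and other CPM use TMM-scaled library sizes. Calls are at a Benjamini-Hochberg adjusted p under 0.05 over all tested genes of a comparison, and intervals are 95% confidence intervals. Counting precision was set by the 5501895 to 7692013 counts per library, and PCR duplicates were not separated, as no molecular identifiers are recorded.

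The members, the gene lists and the rule for named genes were chosen with earlier results of these data known. Described genes are ZNF248, the members with the most counts, those at the threshold, and per comparison up to 6 rises and 6 falls among called members whose groups did not overlap, with every called partner gene. ZNF3, ZNF24, ZNF33A, ZNF37A, ZNF131, ZNF143, ZNF207, ZNF226, ZNF573, ZNF593, ZNF668, ZNF689, ZNF770, ZNF775 and ZNF865 were in part named after their values were seen. No set test was made. Symbols came from a table of gene names. Finger counts, KRAB boxes and gene neighbours came from GENCODE annotation of GRCh38, with a KRAB profile of 38 positions and a minimum of 15 bits that replaced a stricter pattern after the data were seen. Alternatives were other scalings, filters, tests and thresholds of membership, a block for the replicate number, and fits without 1 library at a time.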

Additional observations from a re-analysis of the deposited data

How the results depend on the processing

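With each library left out in turn, the number of ZNF genes called ranged from 8 to 22 for JQ1 against DMSO, 5 to 14 for BKM120 against DMSO, 39 to 49 for 18DS against DMSO and 0 to 15 for 18DS against JQ1. Calls over all tested genes also varied with the library left out. The median log2 fold change of the 143 members ranged from -0.14 to -0.11 for JQ1, -0.066 to -0.038 for BKM120 and -0.20 to -0.14 for 18DS, each against DMSO, and from -0.12 to -0.073 for 18DS against JQ1. For JQ1 against DMSO, 28 members were called with those 2 groups fitted alone and 10 by DESeq2's Wald test. Scaling by library totals alone gave medians of -0.15 for JQ1, -0.098 for BKM120, -0.24 for 18DS and -0.13 for 18DS against JQ1. With upper-quartile factors the first 3 were -0.088, -0.019 and -0.12. The medians over all tested genes moved in the same direction by about as much, to -0.026, -0.035, -0.075 and -0.055 with library totals and to 0.034, 0.045 and 0.046 with upper-quartile factors. The cause of the other shifts was not tested, and every median of the members stayed below zero in the settings run. ZNF248 in 18DS against JQ1, which was not called, changed sign to -0.12 without 18DS replicate 2 and to -0.23 without JQ1 replicate 1, within a range of -0.23 to 0.67 over single libraries left out. Over 102 gene comparisons of called members, ZNF248 and called partners, each under 22 alternatives (2244 in all), 1905 kept direction and side of the threshold, 337 kept direction and lost the call, and 2 changed sign.

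Same-numbered libraries of 2 groups deviated with correlations of -0.397 to 0.309, both of these with 18DS replicate 2. Libraries of different numbers were not compared in this way, so whether the replicate numbers pair libraries was not settled. The main fit used no block. With a replicate block 18, 10, 48 and 11 members were called for JQ1, BKM120 and 18DS against DMSO and 18DS against JQ1. Depth limits the members of 5 to 20 CPM most, and with 3 libraries a group many calls near the threshold rest on single libraries.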
